A study of Mus musculus with 6 samples.

Results

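Transcripts of 8 receptor genes for modified lipoproteins were read from RNA sequencing of mouse macrophages that had been differentiated from bone marrow in culture. The genes were chosen by symbol from the 54532 genes of the deposited table: Msr1, Marco, Colec12, Cd36, Scarb1, Olr1, Cd68 and Lrp1. XKO macrophages (labelled Xbp1ΔMf, a deletion of Xbp1 in macrophages) were compared with XWT macrophages (labelled Xbp1FL/FL, with Xbp1 alleles flanked by recombination sites). XBP1 is a transcription factor that acts when unfolded proteins accumulate in the endoplasmic reticulum. All samples came from C57BL/6 animals of 32 to 34 weeks, and XKO and XWT cells alike had lipopolysaccharide priming before conditioned medium from wild-type primary hepatocytes was applied for 48 h, so neither group shows macrophages without these exposures. Each group had 3 libraries of 28354866 to 30891729 counts. The labels name no Cre driver for the deletion. Nothing in them tells separate animals or cultures from repeat libraries of 1 culture, so p-values reflect only how far these libraries differ, and that spread may be technical.

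Scavenger receptors bind low-density lipoprotein that has been oxidised or acetylated, as well as microbes and dying cells, and carry it into the macrophage. Native lipoprotein receptors are shut down when a cell holds enough cholesterol, whereas most scavenger receptors are not, which is how macrophages become lipid-laden foam cells in arteries and in fatty liver. Msr1, Marco and Colec12 belong to class A, trimeric receptors with a collagen-like stalk, and Cd36 and Scarb1 to class B, whose chains cross the membrane at both ends. Olr1 is a C-type lectin-like receptor of oxidised lipoprotein, Cd68 a heavily glycosylated protein of late endosomes and lysosomes, and Lrp1 a very large endocytic receptor for apolipoprotein E-bearing remnants and protease complexes.

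Of the 8 genes, Olr1 was higher and Scarb1 lower in XKO, and the other 6 did not pass the test at an adjusted p under 0.05. Olr1 was 2.18-fold higher from a very low level, and Scarb1, the receptor for high-density lipoprotein, was 1.23-fold lower. Cd36, a receptor of oxidised lipoprotein and long-chain fatty acids, was above every XWT library in all 3 XKO libraries and missed the threshold narrowly (edgeR quasi-likelihood test, adjusted p = 0.0534). Among all 14333 genes tested, 14.0% were called, 6.00% higher and 7.99% lower in XKO. All 8 genes passed the filter on low counts, 4 with a positive and 4 with a negative log2 fold change, and their median log2 fold change was -0.00076 beside 0.0014 over all genes tested.

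The promoters of Olr1 and Cd36 are printed because these were the members with the largest upward fold changes and a sequence at hand. The sequences are RefSeq's for build GRCm38.p6, each running from 250 bases before to 50 bases after an annotated start, 5′ to 3′ on the minus strand, with capitals marking matches on either strand to the AP-1 motif TGANTCA or the nuclear receptor core AGGTCA. The Olr1 window is chr6:129507116-129507415 and the Cd36 window chr5:17835847-17836146.
Olr1: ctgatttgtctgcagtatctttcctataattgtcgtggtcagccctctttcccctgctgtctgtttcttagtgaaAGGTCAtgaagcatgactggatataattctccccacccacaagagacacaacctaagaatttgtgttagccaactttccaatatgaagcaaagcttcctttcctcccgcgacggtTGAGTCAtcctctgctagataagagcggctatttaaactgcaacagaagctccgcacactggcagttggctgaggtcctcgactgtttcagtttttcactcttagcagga
Cd36: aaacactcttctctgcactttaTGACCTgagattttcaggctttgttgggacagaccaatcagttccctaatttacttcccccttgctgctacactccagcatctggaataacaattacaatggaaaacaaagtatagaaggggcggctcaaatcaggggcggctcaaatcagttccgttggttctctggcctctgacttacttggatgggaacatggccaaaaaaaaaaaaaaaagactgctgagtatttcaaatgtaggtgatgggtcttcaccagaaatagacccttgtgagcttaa
The Olr1 window held 1 match to each motif, starting 60 and 175 bases before the start, and the 2 did not overlap. The Cd36 window held 1 match to AGGTCA, on the opposite strand and starting 228 bases before the start, and none to TGANTCA. Of 32851 promoter windows of this length, 7.81% held TGANTCA and 16.3% held AGGTCA. The RefSeq start of Olr1 is the 5′ end of the gene and of 2 GENCODE transcripts, while that of Cd36 lies 52905 bases inside the gene and is the start of no GENCODE M21 transcript, so it is only one of several possible starts. CCAAT was matched once in each window and in 37.4% of all windows. The Olr1 window also held 1 match to CCACG, found in 32.8% of all windows, and the Cd36 window none. GAGGAA, read by the myeloid factor PU.1, was likewise matched once in the Olr1 window only and stands in 28.3% of all windows. The letters ACGT, the core of sites bound by XBP1, were in neither window and in 30.9% of all windows. No match overlapped another.

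The genotype labels were checked first on Xbp1 itself. Xbp1 had 76.8, 79.4 and 76.5 CPM (counts per 1e6 reads, scaled between libraries) in XKO 1 to 3, against 159, 157 and 132 CPM in XWT 1 to 3. Its log2 fold change was -0.94 ± 0.077 (SE; edgeR adjusted p = 1.93e-06), and the count covers the whole gene, including any part outside the deletion. The macrophage gene Lyz2 had 14274 ± 583 CPM in XKO and 31140 ± 3553 CPM in XWT (SD, n = 3 each; log2 fold change -1.13, edgeR adjusted p = 1.06e-06). Principal component 1 held 61.4% of the variance. On it the XKO libraries lay between -33.8 and -29.2, and XWT 1 and XWT 2 at 36.9 and 38.6. XWT 3, at 18.2, lay nearest XKO on this axis between the groups, but was not set apart within XWT. The chi-square per gene was 21.3 between XWT 1 and XWT 2, 23.8 between XWT 1 and XWT 3, and 21.1 between XWT 2 and XWT 3. The log2 fold change of each of the 8 genes is also given without XWT 3. As XWT 3 was picked along the compared axis, its removal can widen the differences and is no separate support.

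Per unit of transcript length the 8 genes covered a wide range of levels. The deposited FPKM are fragments per kilobase and per library total as scaled by the authors. In XKO their order was Cd68 with 748 ± 8.43, Cd36 with 223 ± 0.41, Lrp1 with 153 ± 8.02 and Marco with 150 ± 6.74 FPKM (SD, n = 3). Below these came Msr1 with 29.3 ± 0.60, Scarb1 with 17.1 ± 0.41, Colec12 with 13.4 ± 0.36 and Olr1 with 0.605 ± 0.077 FPKM (SD, n = 3). In XWT these levels were 837 ± 109.6 for Cd68, 192 ± 15.4 for Cd36, 155 ± 6.66 for Lrp1, 163 ± 16.9 for Marco, 26.0 ± 3.37 for Msr1, 21.1 ± 2.62 for Scarb1, 13.3 ± 1.18 for Colec12 and 0.280 ± 0.11 FPKM for Olr1 (SD, n = 3). Lrp1 and Marco overlapped in both groups, and Msr1 and Scarb1 overlapped in XWT only, so their order there is within the spread. By mean FPKM, Cd68 was the 34th of the genes tested and Olr1 the 12231st. Summed over the 8 genes, the level was 1332, 1336 and 1336 FPKM in XKO 1 to 3, against 1525, 1400 and 1301 FPKM in XWT 1 to 3, a sum of which Cd68 alone made up 56.1% ± 0.55 in XKO and 59.3% ± 3.03 in XWT (SD, n = 3 each).

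**Figure D1:**
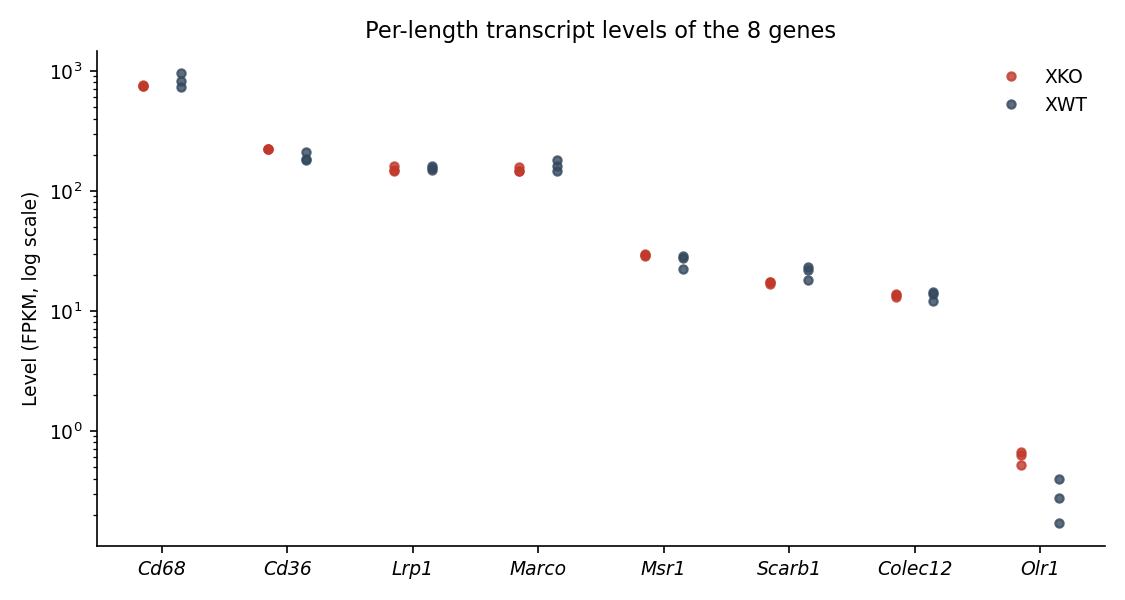
Deposited FPKM (log axis) of each gene in 3 XKO and 3 XWT libraries, each point being 1 library and genes ordered by their XKO mean. Cd68 lay highest with a mean of 748 FPKM in XKO and 837 FPKM in XWT, and Olr1 lowest with 0.605 and 0.280 FPKM in XKO and XWT.

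Class A receptors did not pass the test. Msr1, the founding receptor of acetylated lipoprotein (chromosome 8 from 39581685 to 39642673, minus strand), had 184, 185 and 191 CPM in XKO 1 to 3, against 174, 140 and 182 CPM in XWT 1 to 3. All 3 XKO values were above all XWT values, with XWT 3 just below XKO 1. The fitted log2 fold change was 0.17 ± 0.086 (SE; edgeR adjusted p = 0.189), with a 95% interval from -0.01 to 0.36, and without XWT 3 it was 0.25 with an adjusted p of 0.038. Marco, a receptor for bacteria and particles that is known to be induced by lipopolysaccharide (chromosome 1 from 120474538 to 120505024, minus strand), had 282, 286 and 306 CPM in XKO 1 to 3, against 284, 348 and 312 CPM in XWT 1 to 3. These ranges overlapped, and the log2 fold change was -0.11 ± 0.078 (SE; edgeR adjusted p = 0.357; -0.12 without XWT 3), between -0.18 without XWT 1 and -0.036 without XWT 2. Colec12, a collectin that also binds oxidised lipoprotein and microbial sugars, had 45.0, 43.5 and 45.9 CPM in XKO 1 to 3, against 47.2, 39.7 and 46.0 CPM in XWT 1 to 3. Its groups overlapped, and its log2 fold change of 0.02 ± 0.079 (SE; edgeR adjusted p = 0.911; 0.04 without XWT 3 and -0.06 without XWT 2) had a 95% interval from -0.15 to 0.19.

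The class B receptors had fold changes of opposite sign. Scarb1, which takes up cholesteryl ester from high-density lipoprotein and exchanges free cholesterol with it (chromosome 5 from 125277087 to 125341094, minus strand), had 149, 143 and 148 CPM in XKO 1 to 3, against 186, 197 and 156 CPM in XWT 1 to 3. Every XKO value was below every XWT value, and XWT 3 was the XWT library closest to XKO. The difference was a log2 fold change of -0.29 ± 0.082 (SE; edgeR adjusted p = 0.0306), and -0.39 without XWT 3 (adjusted p = 0.000639). The call ended without any other library, with adjusted p from 0.0847 to 0.146, and with library size as the only scaling (log2 fold change -0.22, adjusted p = 0.0623). Reads of a same-strand transcript within Scarb1, Gm42633, came to 0.0513% of its own.

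Cd36 (chromosome 5 from 17781690 to 17888801, minus strand) had 805, 804 and 807 CPM in XKO 1 to 3, against 754, 650 and 672 CPM in XWT 1 to 3. The coefficient of variation was 0.193% in XKO and 7.92% in XWT, and the groups did not overlap. At a mean of 24798 counts, the XKO spread is below counting error alone and is not read as a trait of XKO. The log2 fold change was 0.22 ± 0.070 (SE), with a 95% interval from 0.07 to 0.37. It passed the threshold in 9 of 17 alternatives. Among them were DESeq2 (adjusted p = 0.0258), limma-voom (0.04), library size alone (0.00881) and the fit without XWT 3 (log2 fold change 0.20, adjusted p = 0.0375). The authors' deposited table, also among the 9, gives a log2 fold change of 0.21 with an adjusted p of 0.0258, as DESeq2 does. Both call 882 genes higher and 1229 lower, so they are 1 result and no separate support. Within each library, the level of Cd36 per length over that of Scarb1 is free of the scaling between libraries. This ratio was 12.8, 13.4 and 12.9 in XKO 1 to 3, against 9.60, 7.82 and 10.2 in XWT 1 to 3, without overlap. The exact permutation test gave a two-sided p of 0.1, the smallest that 3 against 3 libraries allow (adjusted p = 0.1 over 2 ratios). The exact p was fixed once Cd36 lay above and Scarb1 below every XWT library in all XKO libraries. The ratio is thus a description and no separate test, and the adjusted p rests also on the second ratio. The ratio of Msr1 to Marco, within class A, was 0.198, 0.197 and 0.189 in XKO 1 to 3, against 0.186, 0.123 and 0.177 in XWT 1 to 3, with the same exact permutation p of 0.1.

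Olr1, best known from endothelial cells and induced in macrophages by inflammatory stimuli (chromosome 6 from 129485244 to 129507165, minus strand), gave few reads. Its raw counts were 74, 70 and 57 in XKO 1 to 3, against 38, 18 and 31 in XWT 1 to 3. Scaled, these were 2.38, 2.28 and 1.86 CPM in XKO 1 to 3, against 1.41, 0.606 and 0.992 CPM in XWT 1 to 3, and the groups did not overlap. The log2 fold change of 1.12 ± 0.291 (SE; edgeR adjusted p = 0.0223) had a 95% interval from 0.50 to 1.75, the widest of the 8, and was 1.12 without XWT 3 (adjusted p = 0.0247). The call ended without XKO 1 (adjusted p = 0.0922), XKO 2 (0.0903), XKO 3 (0.0531) or XWT 2 (0.0768), the log2 fold change then being 1.05, 1.09, 1.22 and 0.86.

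Cd68 and Lrp1, the endosomal and the endocytic receptor, were the members with the most reads and did not pass the test. Cd68 (chromosome 11 from 69664213 to 69666153, minus strand) had 936, 958 and 943 CPM in XKO 1 to 3, against 1200, 1027 and 936 CPM in XWT 1 to 3. XWT 3 lay just under the XKO values and the other XWT libraries above them. Its log2 fold change was -0.16 ± 0.084 (SE; edgeR adjusted p = 0.222), and -0.24 without XWT 3 (adjusted p = 0.0182). Lrp1 (chromosome 10 from 127538161 to 127621148, minus strand) had 2883, 2662 and 2619 CPM in XKO 1 to 3, against 2626, 2854 and 2784 CPM in XWT 1 to 3. The groups overlapped fully, with a log2 fold change of -0.02 ± 0.069 (SE; edgeR adjusted p = 0.888; -0.01 without XWT 3, and 0.05 with library size as the only scaling) and a 95% interval from -0.17 to 0.13.

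**Figure D2:**
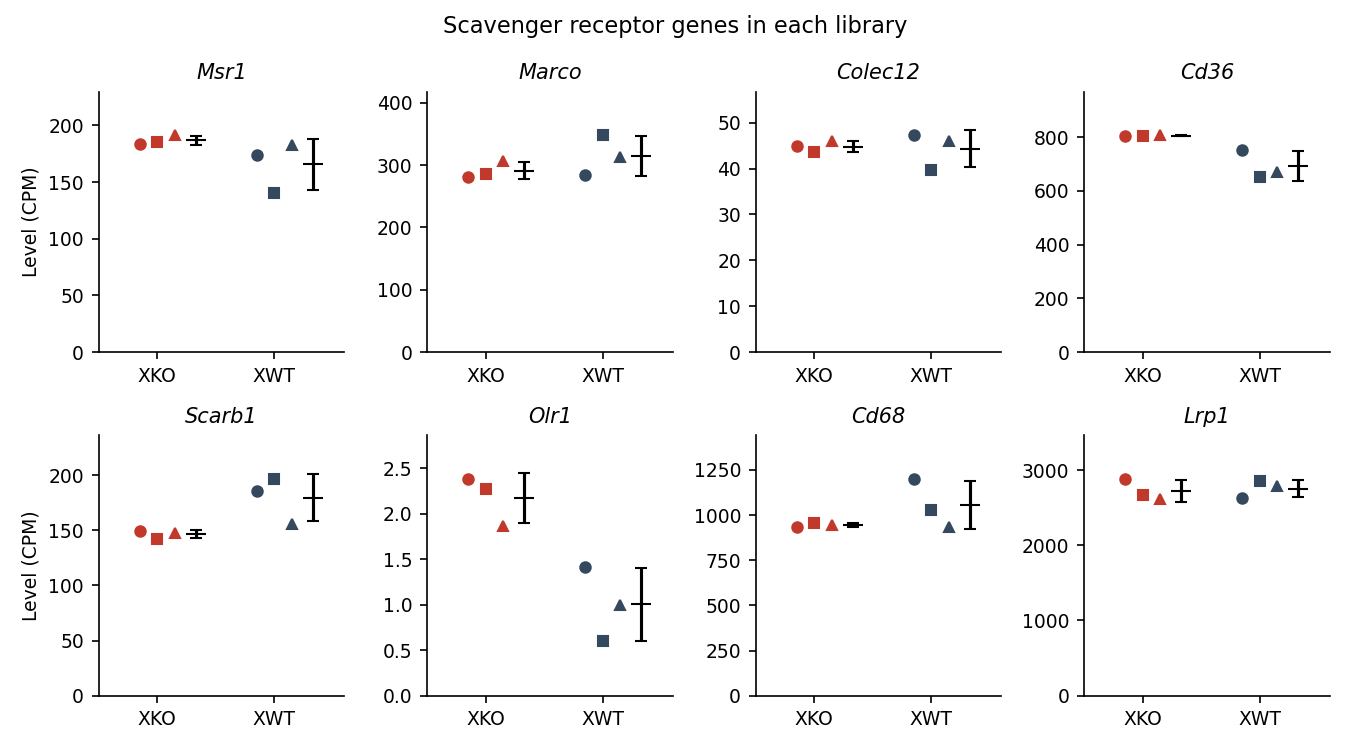
CPM of each gene in every library (circle, square and triangle for replicates 1, 2 and 3), with mean and SD of the 3 libraries of a group in black, each panel starting at 0. XKO lies above XWT without overlap for Msr1, Cd36 and Olr1 and below it for Scarb1, and the remaining 4 genes overlap.

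In 4 of the 8 genes the groups did not overlap, 3 higher and 1 lower in XKO, beside 36.2% of all genes tested (17.5% higher and 18.6% lower). The XWT libraries were the more variable: the coefficient of variation was larger in XWT for 7 of the 8 genes, Lrp1 being the exception with 5.20% in XKO and 4.25% in XWT, and for 76.0% of all genes tested. XWT 3 was the XWT library closest to the XKO mean for 5 of the 8 genes, Msr1, Colec12, Scarb1, Cd68 and Lrp1, and XWT 1 for the other 3. Without XWT 3, 5 of the 8 genes were called, Msr1, Cd36 and Olr1 higher and Scarb1 and Cd68 lower. Among all genes tested, 2073 were then called higher and 2164 lower, against 860 and 1145 with all libraries. XWT 3 was picked along the compared axis, so its removal can widen the differences, and these calls are no separate support. Without XWT 2, XKO 1, XKO 2 or XKO 3 instead, 0 of the 8 were called in either direction. In these fits 1209, 915, 806 and 898 of all genes were called, against 2005 with all libraries, so calls became fewer over all genes too. Without XWT 1, 2 of the 8 were higher and 0 lower, beside 639 higher and 975 lower among all genes tested.

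**Figure D3:**
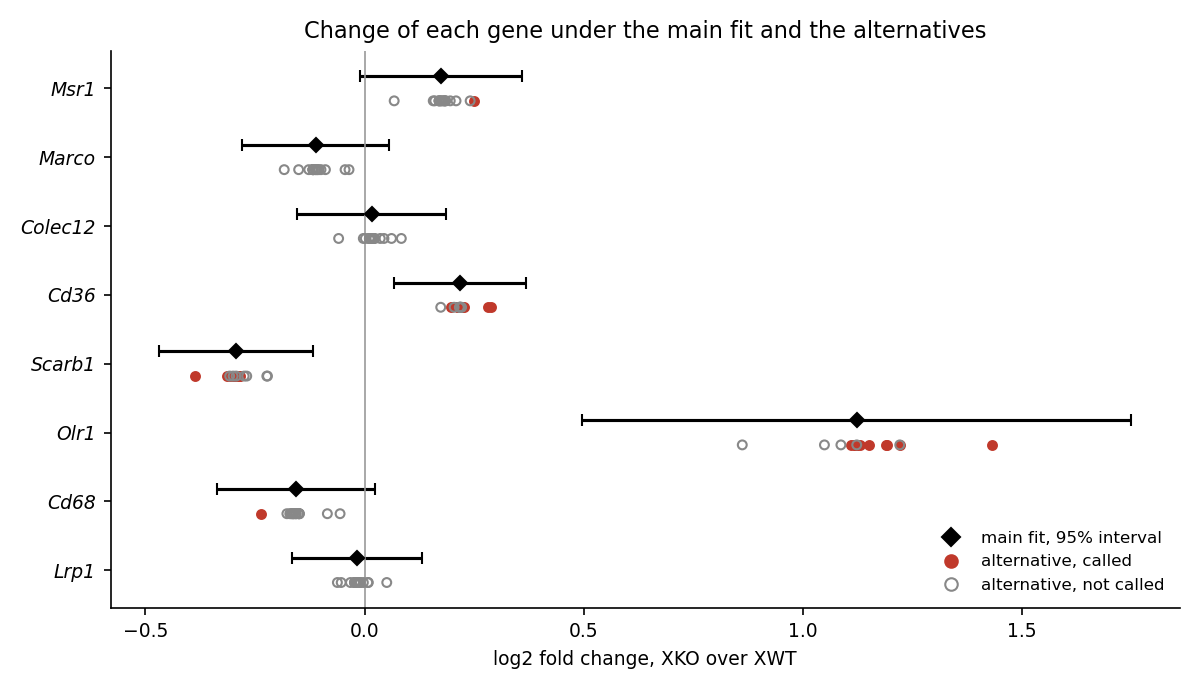
Log2 fold change of XKO over XWT for each gene, as the edgeR estimate with its 95% interval (black) and as the estimate under each of 17 alternatives (filled where called, open where not). The intervals of Cd36, Scarb1 and Olr1 do not include 0, and Olr1 has the widest, from 0.50 to 1.75.

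Markers of other cells moved between the same groups. Of 13 markers of fibroblasts and stroma, 11 were tested and 10 fell (9 with at least 1 CPM in 3 libraries). Their summed levels were 67.8 to 81.9 CPM in XKO and 691 to 801 CPM in XWT. Sparc, a matrix glycoprotein, averaged 8.62 ± 1.28 CPM in XKO and 94.8 ± 1.09 CPM in XWT (SD, n = 3 each; edgeR adjusted p = 7.60e-11), and the log2 fold changes of the collagen genes Col1a2 and Col3a1 and the actin gene Acta2 were -3.36, -3.87 and -3.00. Of 10 markers of neutrophils and their precursors, 8 were tested and 7 rose (6 with at least 1 CPM in 3 libraries). Mmp8 rose by 0.78, Ltf by 1.54, Lcn2 by 0.95 and S100a8 by 0.90 on the log2 scale. The summed levels of the 10 were 61.5 to 65.1 CPM in XKO and 30.8 to 39.8 CPM in XWT. Of 12 macrophage markers, 5 fell, among them Mrc1 (-1.27), C1qb (-0.69), C1qa (-0.72) and Lyz2. Among other fits, 7 fell with DESeq2, 9 with quality weights in limma-voom, 10 without XWT 3 and 4 without XKO 1 or XKO 2. The summed levels of the 12 were 26691 to 28498 CPM in XKO and 41855 to 50070 CPM in XWT. Lyz2 made up most of this sum, and the lineage markers Adgre1 and Csf1r, at 5750 ± 216 and 3645 ± 59.3 CPM in XKO and 6614 ± 328 and 3912 ± 168 CPM in XWT, did not pass the test (SD, n = 3 each; edgeR adjusted p = 0.0677 and 0.315). Of 10 endothelial markers 5 were tested, and Pecam1 alone was called (-0.54 on the log2 scale), at 6.31 ± 0.42 CPM in XKO and 9.17 ± 0.34 CPM in XWT (SD, n = 3 each), with summed levels of 93.6 to 100.2 CPM in XKO and 88.4 to 96.1 CPM in XWT. Clec4g had no count in any library. None of 4 tested dendritic cell markers of 7 was called by edgeR, DESeq2 or limma-voom, 0 of them at an unadjusted p under 0.05 (edgeR). Itgax had 54.9 ± 4.75 CPM in XKO and 49.6 ± 2.76 CPM in XWT, and Xcr1 0.681 ± 0.19 CPM in XKO and 0.516 ± 0.25 CPM in XWT (SD, n = 3 each), with summed levels of all 7 of 51.0 to 60.8 CPM in XKO and 48.2 to 54.2 CPM in XWT. All 8 hepatocyte markers, from Alb to Cyp2e1, had no count in any library, which allows a level of up to 0.106 CPM each. In bulk RNA, fewer cells of a type and less RNA per cell cannot be told apart, and the part of these cells in the values of the 8 receptors was not tested.

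Genes around the 8 receptors were read from 5 lists. Among all genes tested 6.00% were called higher and 7.99% lower, 14.0% in either direction, and no list was tested against these shares. Of 12 other scavenger receptors, 11 were tested and 4 fell, with a list median log2 fold change of -0.20, and none rose (edgeR; 2 were higher at an unadjusted p under 0.05, and DESeq2 and limma-voom also called none higher). Stab1, a clearance receptor of tissue macrophages, averaged 801 ± 27.8 CPM in XKO and 963 ± 70.7 CPM in XWT (SD, n = 3 each; log2 fold change -0.27 ± 0.071 SE, edgeR adjusted p = 0.0253). The other 3 were scarce: its paralog Stab2, a receptor of hyaluronan in sinusoidal endothelium, had 1.40 ± 0.33 CPM in XKO and 2.73 ± 0.38 CPM in XWT, Scarf2 had 1.03 ± 0.15 CPM in XKO and 2.96 ± 0.64 CPM in XWT, and Scara3 had 0.152 ± 0.10 CPM in XKO and 0.884 ± 0.23 CPM in XWT (SD, n = 3 each). Their log2 fold changes were -0.97, -1.53 and -2.51. Scara3, with 4, 2 and 8 counts in XKO 1 to 3, passed the filter on low counts only through XWT, where it was higher. Its fall was thus favoured by the filter, and with at least 1 CPM in 3 libraries 3 of the list were lower. The stromal markers listed above were lower in the same XKO libraries (67.8 to 81.9 CPM in XKO and 691 to 801 CPM in XWT in sum), and their part in these scarce receptors was not tested. In the fits that left out XKO 1, XKO 2 or XWT 2, 2 of the list were lower, and without XWT 3 these were 6, with 1 higher.

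Receptors of native lipoproteins changed both ways, with 3 higher and 3 lower of 12 tested (14 listed; median log2 fold change -0.13). Lrp8, a receptor of apolipoprotein E and reelin, averaged 27.5 ± 1.08 CPM in XKO and 18.9 ± 2.90 CPM in XWT (SD, n = 3 each; log2 fold change 0.54). Lrp5, a Wnt co-receptor of the same family, averaged 45.5 ± 1.72 CPM in XKO and 62.9 ± 5.32 CPM in XWT (SD, n = 3 each; log2 fold change -0.47), and Vldlr, a receptor of triglyceride-rich particles, 1.61 ± 0.41 CPM in XKO and 3.68 ± 0.44 CPM in XWT (log2 fold change -1.19). The 3 lower became 5 without XWT 3 and 2 without XKO 1, XKO 2 or XKO 3. The 3 higher became 2 with no filter, with the replicate block, and without XKO 1, XKO 2, XKO 3 or XWT 1.

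Genes that store, hydrolyse or export the cholesterol taken up were called in 2 of 14 members, both lower (median log2 fold change 0.03). That share is close to the 14.0% called among all genes tested. Apoe, the apolipoprotein that macrophages secrete with cholesterol, averaged 2736 ± 149.5 CPM in XKO and 4255 ± 784 CPM in XWT (SD, n = 3 each; log2 fold change -0.64 ± 0.113 SE, edgeR adjusted p = 0.00333). Cyp27a1, which makes 27-hydroxycholesterol, averaged 41.7 ± 0.24 CPM in XKO and 50.8 ± 1.48 CPM in XWT (SD, n = 3 each; log2 fold change -0.28). None was higher in edgeR (3 at an unadjusted p under 0.05). With library size as the only scaling the balance turned to 3 higher and 1 lower, and 1 was higher with DESeq2, limma-voom with or without quality weights, no filter, and in the fits without XWT 1 or XWT 3. The 2 lower became 1 without any XKO library.

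Of 14 reported regulators of scavenger receptor genes, 13 were tested and 1, Rxra, the partner of PPAR and LXR receptors, fell (82.9 ± 2.32 CPM in XKO and 111 ± 10.1 CPM in XWT; SD, n = 3 each; log2 fold change -0.42 ± 0.074 SE, edgeR adjusted p = 0.00233), and the list median was -0.10. The 1 lower became 2 with DESeq2, with quality weights in limma-voom or without XWT 1, 4 with no filter and 5 without XWT 3. None was higher (2 at an unadjusted p under 0.05 in edgeR, and none in DESeq2 or limma-voom without quality weights), whereas 2 were with quality weights, and 1 with library size alone, no filter, at least 1 CPM in 3 libraries, the replicate block, or without XWT 2 or XWT 3. Of 12 co-receptors, kinases and adaptors, 10 were tested and 4 rose, with a list median of 0.04. Cav1, the caveolin reported to bind class A and B receptors, averaged 297 ± 12.7 CPM in XKO and 172 ± 30.4 CPM in XWT (SD, n = 3 each; log2 fold change 0.79 ± 0.106 SE, edgeR adjusted p = 0.000458). Its partner Cav2 rose by 0.48, the inflammasome sensor gene Nlrp3 by 0.39 and the lipopolysaccharide receptor gene Tlr4 by 0.22 on the log2 scale, and the call of Tlr4 ended without any 1 library but XWT 3. None was lower (1 at an unadjusted p under 0.05 in edgeR, and none in DESeq2 or limma-voom), and 1 was with no filter or without XWT 3.

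**Figure D4:**
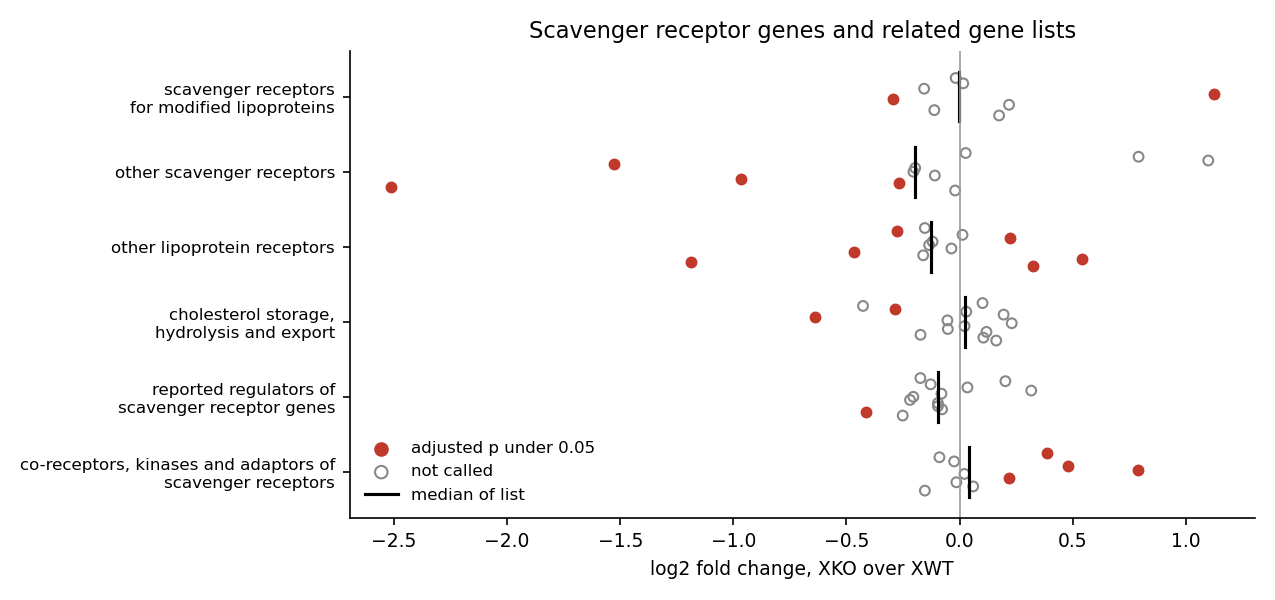
Log2 fold change of XKO over XWT for the 8 genes (top row) and for the tested genes of 5 related lists, filled where the adjusted p was under 0.05, with the median of each list as a bar. The called members of the 12 other scavenger receptors lie below 0, and those of the 12 co-receptors, kinases and adaptors above it.

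The genes whose pattern over the 6 libraries was most like that of each receptor were read by Pearson correlation of log2 CPM among 9403 genes of at least 5 CPM, as a description of libraries that share their depth and group. For Olr1 they were Lrpprc and Tarm1 (r = 0.998 and 0.996), for Cd36 Slc41a2 and Mms19 (0.996 and 0.996), and for Scarb1 Slc25a11 and Glo1 (0.998 and 0.998). For Msr1 they were Pcm1 and Fcho2 (0.999 and 0.998), for Marco Akip1 and Pomt2 (0.998 and 0.991), for Cd68 Zdhhc9 and Rtraf (0.998 and 0.995), for Colec12 Eif2a and Pold3 (0.992 and 0.991), and for Lrp1 Mib2 and Coa6 (0.964 and 0.958). Of the genes most like Olr1, Tarm1, a receptor of myeloid cells, averaged 9.58 CPM in XKO and 5.58 CPM in XWT, and Lrpprc, a mitochondrial RNA-binding protein gene, 72.8 CPM in XKO and 65.9 CPM in XWT.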

How the data were processed

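Per the labels' protocols, RNA of 3 XKO and 3 XWT samples, grouped by title, was taken with Trizol and made into libraries with a NEBNext Ultra kit. Bowtie 0.12.2, mm8 and mm10 appear in the submitters' processing notes without a stated role. No source used here names the counter or its strand setting, and overlapping or antisense genes may thus share reads. The authors deposited 1 table: whole-number counts per gene and FPKM per library, per the file headers, and their own scaled group means (a signal), log2 fold changes (XKO over XWT) and raw and adjusted p-values, per the file headers. FPKM carry the authors' scaling between libraries and were used for levels only. Coordinates are as the table gives them, and for the 7 genes whose coordinates are printed they are those of GENCODE M21 (GRCm38).

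Counts were tested with edgeR 4.0.16 in R 4.3.3: filterByExpr kept 14333 of 54532 genes, TMM scaled the libraries (factors 0.951 to 1.03), and XKO was set against XWT by glmQLFit and glmQLFTest with robust estimation (4 residual degrees of freedom). Benjamini-Hochberg adjustment ran over all tested genes, and the threshold was 0.05. The standard error is the log2 fold change divided by the root of the F statistic, and the 95% interval uses the fit's moderated degrees of freedom. Counting error was largest for Olr1. Within XKO the spread of Cd36 was below the counting error, and that of Colec12 was about equal to it. Averaged over genes, no pair of libraries agreed within sampling noise (chi-square per gene 2.92 to 4.85 among XKO and 21.1 to 23.8 among XWT).

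The 8 members and all lists were chosen with earlier results of these data known. Besides the members, Xbp1 and Lyz2, the text names up to 4 called genes with the smallest p from each list, or the 2 with the highest level where none was called, and the 2 genes most like each member, except 1 called gene that is not reported here; Adgre1, Csf1r, Clec4g, Alb and Cyp2e1 were named after their values were seen. Promoters are RefSeq's (GRCm38.p6), matched by symbol for 5 of the 8 members. Same-numbered libraries did not deviate together (correlations -0.043, -0.036 and -0.054). Alternatives were other scalings and filters, DESeq2 1.42.0, limma-voom 3.58.1 with and without quality weights, a replicate block, each library left out, a stricter threshold and the authors' table. Counts of the lists without XWT 3 were added after seeing the data.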

Additional observations from a re-analysis of the deposited data

How the results depend on the processing

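Of 136 refits of the 8 genes, 113 kept their side of the threshold, 11 gained a call, 12 lost one and 0 reversed a called direction. Of the 113, 108 also kept their sign; the other 5 were uncalled values near 0, of Colec12 without XKO 3 (-0.0029) or XWT 2 (-0.059) and of Lrp1 with library size alone (0.051), without XKO 3 (0.0085) or without XWT 2 (0.0074). Cd36 was called with DESeq2 (log2 fold change 0.21), limma-voom (0.22), limma-voom with quality weights (0.22), no filter (0.21) and at least 1 CPM in 3 libraries (0.23). It was also called with library size alone (0.29) and in the authors' deposited table (0.21, the same result as DESeq2). Each of these gave 2 scavenger receptor genes higher in XKO instead of 1. With library size alone Scarb1 (-0.22) was not called, leaving 0 lower, and 1158 genes were higher and 749 lower (60.7% of calls higher, against 42.9% with TMM). At an adjusted p under 0.01, Olr1 (1.12) and Scarb1 (-0.29) were not called, leaving 0 of the 8 in either direction, with 262 genes higher and 544 lower over the table. Leaving out 1 library at a time gave 274 (without XKO 2) to 2073 (without XWT 3) genes higher and 532 to 2164 lower, and 0 to 3 of the 8 higher and 0 to 2 lower. The log2 fold change then ranged from 0.068 to 0.25 for Msr1, from 0.17 to 0.28 for Cd36, from -0.39 to -0.22 for Scarb1, from 0.86 to 1.43 for Olr1, from -0.24 to -0.056 for Cd68, from -0.18 to -0.036 for Marco, from -0.059 to 0.061 for Colec12 and from -0.062 to 0.0085 for Lrp1. The cause of these changes was not tested; a fit without an XKO library loses a member of the less variable group and 1 residual degree of freedom. With the replicate block, which the deviations do not bear out as a pairing, 1068 genes were higher and 1127 lower and the 8 genes kept their calls (Cd36 0.22, adjusted p = 0.078; Scarb1 -0.29; Olr1 1.15). Marco, Colec12 and Lrp1 were called under no alternative.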
